A study of Mus musculus with 18 samples.

Results

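The histone genes of mouse brain were followed through a photothrombotic stroke in 18 total RNA libraries. They were taken by name, as the genes of the 4 Hist clusters and 10 histone variant genes listed by symbol, and 74 of the 34921 genes in the data met the rule. Of these, 64 lie in the clusters (6 for the linker histone H1, 19 for H2A, 18 for H2B, 10 for H3 and 11 for H4), and 71 are annotated as protein coding. Another 6 cluster genes of the annotation were not analysed here.

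All mice were male C57BL/6 animals of 9 weeks. For stroke, rose bengal, a dye that makes lit vessels clot, was given at 100 mg/kg into the abdomen. After 5 min a 2 mm fiber centred 2 mm right of bregma lit the skull for 15 min (wavelength 532 nm, output 40 mW). Small punches of frozen tissue, guided by magnetic resonance images, gave 6 groups of 3 libraries. The groups were the right focal region at 4 h (libraries 2, 3 and 6), 1 day (1, 3 and 4), 3 days (1, 2 and 8) and 10 days (1, 2 and 5) after stroke, the contralateral left side (1, 3 and 5) and the matching right region of sham mice (1, 2 and 3). The protocol takes the left punches from mice with stroke, at a time that is not given, while their labels list them as sham. What the sham mice received is not stated. Left and right control libraries share a title prefix and the numbers 1 and 3, and no source used here says whether these share a mouse; they were compared as independent. A punch holds all cells of the region, so fewer cells of a type and less RNA per cell cannot be told apart.

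Histones pack DNA. H2A, H2B, H3 and H4 form the core of the nucleosome, and H1 linker histones bind the DNA between cores. Most cluster genes are used in S phase, when new DNA is packed, and their mRNA usually ends in a stem-loop in place of a poly(A) tail, which the stem-loop binding protein Slbp recognises. Variant genes are used outside S phase too, have introns or tails more often, and supply neurons and other cells that no longer divide.

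The stem-loop is the feature that sets cluster transcripts apart, and a form of it (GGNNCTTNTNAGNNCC, searched on the sense strand) was found in 44 of the 74 members, 43 cluster genes and H2afx, against 136 of 21901 protein-coding genes (0.621%). The 136 include members, and 92 of them lie outside the rule. In the 44 members the motif lay 21 to 58 bases after the stop codon, with a median of 31. The form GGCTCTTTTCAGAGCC was shared by 25 members. It is shown in capitals with 5 flanking bases for genes that return below (GENCODE release M21 transcripts, GRCm38):
Hist1h1c (chr13:23739512-23739527, + strand): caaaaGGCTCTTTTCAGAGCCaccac
Hist1h1e (chr13:23621782-23621797, - strand): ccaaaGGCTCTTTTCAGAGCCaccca
Hist2h3c2 (chr3:96238485-96238500, - strand): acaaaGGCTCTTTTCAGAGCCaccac
Hist1h4h (chr13:23531458-23531473, + strand): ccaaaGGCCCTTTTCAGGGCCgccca
H2afx (chr9:44335240-44335255, + strand): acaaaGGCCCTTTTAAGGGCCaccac
The first 3 carry the same stem and loop, and Hist1h4h and H2afx carry stems of other bases. Annotated transcripts of the tested cluster genes with the motif ran on for a median of 353.5 bases past it (range 35.0 to 1643), against 47.0 bases (3.00 to 4884) in cluster genes too low to test. The motif was found in 10 of 13 tested cluster genes and in 33 of 51 untested ones.

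Promoters of 2 linker genes are shown because these genes moved together (RefSeq, GRCm38.p6; 250 bases before to 50 after the start). Capitals mark the H1 box (AAACACA), the CCAAT box and the TATA box (TATAAA), searched on both strands:
Hist1h1c (chr13:23738557-23738856, + strand): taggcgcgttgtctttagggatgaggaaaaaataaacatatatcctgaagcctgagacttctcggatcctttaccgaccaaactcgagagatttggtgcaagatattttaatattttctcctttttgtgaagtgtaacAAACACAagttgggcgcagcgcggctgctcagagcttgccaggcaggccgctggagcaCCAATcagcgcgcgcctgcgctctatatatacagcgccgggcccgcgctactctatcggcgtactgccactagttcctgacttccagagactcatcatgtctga
Hist1h1e (chr13:23622509-23622808, - strand): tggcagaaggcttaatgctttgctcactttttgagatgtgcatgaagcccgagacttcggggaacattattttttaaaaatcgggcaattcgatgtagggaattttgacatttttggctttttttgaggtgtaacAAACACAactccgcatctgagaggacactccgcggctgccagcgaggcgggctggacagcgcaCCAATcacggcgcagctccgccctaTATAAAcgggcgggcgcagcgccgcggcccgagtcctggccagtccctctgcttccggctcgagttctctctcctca
In Hist1h1c AAACACA began at -112 and CCAAT at -54, and in Hist1h1e at -115 and -52, with TATAAA at -27. Of the 6 H1 cluster genes, 5 held AAACACA, against 7.18% of 32851 promoters. The promoter of H1f0 held none of these motifs. Over the 67 members with a promoter entry, CCAAT was in 55 (37.4% of all promoters), TATAAA in 34 (13.6%) and the octamer ATTTGCAT in 13 (1.74%), of which 6 were H2A and 6 H2B genes.

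Most histone genes were barely detected in this tissue. Of the 74 members, 47 never reached 1 FPKM (fragments per kilobase of transcript, scaled to the library total), 16 did so in all 18 libraries, and 23 passed the filter for testing (1 FPKM in at least 3 libraries), namely all 10 variants and 13 cluster genes. Averaged over all libraries, H2afz (60.4 FPKM), H3f3b (53.5 FPKM), H3f3a (49.7 FPKM) and H1f0 (46.6 FPKM) led, and the highest cluster genes were Hist1h2bc (40.1 FPKM), Hist3h2ba (23.1 FPKM), Hist3h2a (17.97 FPKM) and Hist1h1c (15.7 FPKM). H3 and H4 cluster genes stayed low, with Hist1h4h at 2.89 FPKM the highest of them. The summed FPKM of the 10 variants was 178 to 381 per library, and that of the 64 cluster genes 85.1 to 193.

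**Figure D1:**
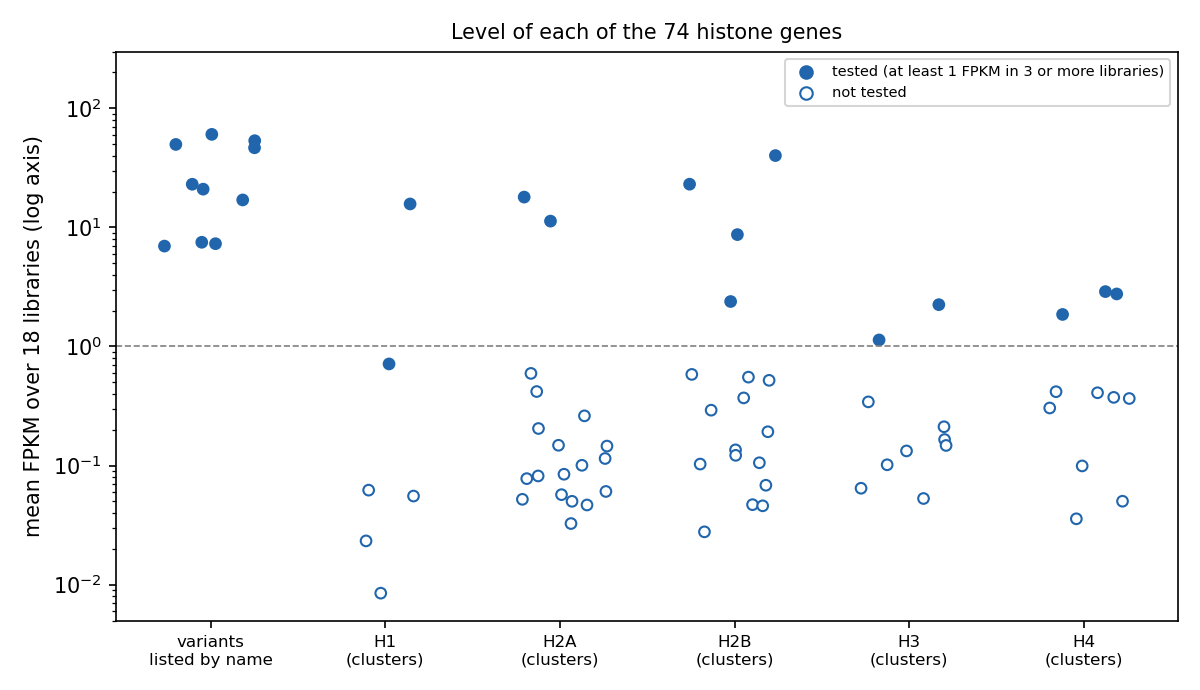
Mean FPKM over 18 libraries (log axis) of each of the 74 histone genes, by class, with filled points for the 23 tested genes and open points for the other 51; the dashed line is 1 FPKM. All 10 variants lie well above the line, while most cluster genes of every class lie below it.

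Copies of histone genes are alike, so fragments may be shared between them. The median share of 50-base stretches also found in another annotated transcript was 32.0% for the 13 tested cluster genes and 54.6% for the 51 untested ones. Hist2h3c1 shares 100% of its stretches, and Hist2h2aa1 shares 89.4%. Hist2h2aa1, an H2A gene, had 15.4, 9.38 and 7.84 FPKM at 4 h, 10.6, 0.0451 and 0 FPKM at 1 day, 17.7, 16.99 and 15.4 FPKM at 3 days, and 18.5, 20.4 and 6.22 FPKM at 10 days. Contralateral left had 22.3, 0 and 12.1 FPKM and sham right 16.96, 13.5 and 0 FPKM. It was listed at 0 in 3 libraries of 3 groups, while 14 libraries held 6.22 FPKM or more. Such values depend on how copies were assigned and are uncertain. H1fx, a linker variant, had 6.77, 0 and 9.81 FPKM at 4 h, 6.74, 8.80 and 6.52 FPKM at 1 day, 7.20, 0 and 9.47 FPKM at 3 days, and 7.18, 8.45 and 1.57 FPKM at 10 days. Contralateral left had 8.19, 11.0 and 11.2 FPKM and sham right 7.92, 6.69 and 7.85 FPKM. The 2 libraries listed at 0 stood apart from the others of their groups, and neither gene was called in any comparison.

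Libraries differed in ways that touch these genes. Mitochondrial genes took 24.4% to 44.6% of summed FPKM, with the highest share in 10 days library 5. There the 7001 genes with a median of 5 FPKM or more deviated by a median of -0.27 (log2) from their own means over the libraries. Short genes among them (446, under 1000 exon bases, mitochondrial genes left out) deviated by a median of -0.61 (log2) in 4 h library 6, -0.32 in 1 day library 4, -0.30 in contralateral left 5, 0.42 in contralateral left 1 and 0.51 in contralateral left 3. Depth is known only roughly, at about 12600000 to 29500000 fragments per library, so that 1 fragment on a 500-base transcript is worth about 0.0677 to 0.159 FPKM. Summed FPKM of 7 microglia and macrophage markers was 33.1 to 38.6 at 4 h, 43.8 to 54.1 at 1 day, 120 to 182 at 3 days and 175 to 282 at 10 days, against 38.4 to 55.1 in sham right, and 5 of the 7 were called higher at 3 days. At 1 day 1 of 7 microglia and 1 of 6 astrocyte markers were called higher, and 0 of 7 neuron, 6 oligodendrocyte, 6 endothelial and 3 neutrophil markers were called. At 3 days 2 of 6 astrocyte and 1 of 6 endothelial markers were higher. Summed FPKM of 5 choroid plexus markers varied from 1.61 to 635 between libraries. The part of these differences in the histone results was not tested beyond the alternatives named below.

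The linker histones held the clearest change. Hist1h1c, which encodes the H1 subtype also called H1f2, fell at 1 day and was high at 3 days. Its level was 15.5, 13.9 and 12.5 FPKM at 4 h, 5.72, 4.98 and 5.40 FPKM at 1 day, 28.7, 22.5 and 29.4 FPKM at 3 days, and 19.99, 20.95 and 8.77 FPKM at 10 days, against 16.6, 18.1 and 14.2 FPKM in contralateral left and 17.2, 14.1 and 14.8 FPKM in sham right. The 3 libraries at 1 day were below those of every other group, and the 3 at 3 days above them. The means were 5.37 ± 0.37 FPKM at 1 day, 26.9 ± 3.8 FPKM at 3 days and 15.4 ± 1.62 FPKM in sham right (SD, n = 3 each).

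In the limma fit on log2(FPKM + 1) over all 14016 tested genes, the histone members called at 1 day against sham right (adjusted p under 0.05) were 0 higher and 3 lower of 23, where 0.899% of all tested genes were called higher and 0.278% lower. Hist1h1c differed by -1.36 ± 0.23 (log2, SE; limma adjusted p = 0.00508) and ranged from -1.50 to -1.26 over 20 alternatives. The call held in 19 of them and was lost without the 5 libraries of extreme short-gene level (1 day 4, 4 h 6 and the 3 contralateral left ones), where the difference was -1.36 (adjusted p = 0.0672). Neutrophil markers summed to 6.45 to 27.1 FPKM at 1 day against 0.937 to 5.49 FPKM in sham right, with 0 of the 3 tested called. Their sums were also 7.24 to 21.9 FPKM at 4 h and 4.77 to 16.3 FPKM in contralateral left. At 1 day the 6 oligodendrocyte markers had a median difference of -0.51, with sums of 582 to 832 FPKM against 742 to 1091 FPKM in sham right. The part of both marker sets in the result was not tested.

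At 3 days against sham right Hist1h1c stood at 0.76 ± 0.23 (limma adjusted p = 0.0576), just short of the threshold. Hist1h1c passed in 5 of 20 alternatives, among them the fit of the 2 groups alone (adjusted p = 0.0069).

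Set against 1 day, 3 histone genes were called higher at 3 days and 0 lower, where 5.07% of all tested genes were called higher and 0.15% lower. Hist1h1c had the largest of the 3 differences, 2.12 ± 0.23 (log2, SE; limma adjusted p = 3.31e-05), and kept its call in all 18 alternatives (2.02 to 2.29). From the 10-day side, it stood at -0.75 ± 0.23 against 3 days (limma adjusted p = 0.130), and library 5 was the low one at 10 days.

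Hist1h1e, the H1 subtype also called H1f4, had the same shape at a far lower level. It was at 0.591, 0.501 and 0.521 FPKM at 4 h, 0.103, 0.195 and 0.272 FPKM at 1 day, 1.29, 1.16 and 1.18 FPKM at 3 days, and 0.727, 0.729 and 0.422 FPKM at 10 days, against 0.937, 0.609 and 0.694 FPKM in contralateral left and 0.918, 1.02 and 0.975 FPKM in sham right. The 1-day libraries were again below and the 3-day libraries above all others. The difference was -0.73 ± 0.11 for 1 day against sham right (limma adjusted p = 0.00218) and 0.90 ± 0.11 for 3 days against 1 day (limma adjusted p = 1.22e-04), and both calls held in every alternative run.

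The pseudocount of 1 shrinks changes of so low a gene. With a pseudocount of 0.1 the differences of Hist1h1e were -1.93 at 1 day against sham right and 2.22 at 3 days against 1 day. The gene passed the filter through the 3-day libraries and 1 sham right library, which favours a high 3-day level, but it stayed called with a filter of 0.5 FPKM (adjusted p = 6.6e-05 for 3 days against 1 day) and with no filter (adjusted p = 2.24e-04). Its exons also share bases on the same strand with Hist1h2be and Gm11398, so part of its reads may be theirs. At 10 days against 3 days Hist1h1e was the 1 member called lower, with 0 called higher (1.19% of all tested genes were called lower and 0.828% higher); its difference of -0.45 ± 0.11 (limma adjusted p = 0.0467) lost its call in 13 of 18 alternatives.

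H1f0, the replacement linker of cells that have left the cycle, was the most abundant H1 message and was not called in any comparison. It measured 48.6, 47.6 and 42.7 FPKM at 4 h, 41.3, 41.4 and 37.7 FPKM at 1 day, 53.5, 52.6 and 51.2 FPKM at 3 days, and 42.5, 48.7 and 22.6 FPKM at 10 days, against 50.3, 50.9 and 47.1 FPKM in contralateral left and 56.5, 54.0 and 50.1 FPKM in sham right. The libraries at 4 h, 1 day and 10 days all lay below sham right without a call (at 1 day -0.41 ± 0.19, limma adjusted p = 0.593). Library 5 alone set the wide spread at 10 days.

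A ratio within a library does not depend on how libraries were scaled. Hist1h1c made up 21.6%, 22.4% and 19.0% of the summed linker FPKM at 4 h, 10.6%, 8.97% and 10.8% at 1 day, 31.5%, 29.5% and 32.1% at 3 days, and 28.3%, 26.5% and 26.3% at 10 days, against 21.8%, 22.4% and 19.4% in contralateral left and 20.8%, 18.6% and 20.0% in sham right. The linker mix thus separated 1 day, 3 days and 10 days from sham right with no overlap, also in 10 days library 5, while 4 h and contralateral left overlapped sham right. At 10 days the level of Hist1h1c itself overlapped sham right (0.02 ± 0.23, limma adjusted p = 0.979). H1f0, the largest part of the linker sum, lay below sham right in all 10-day libraries without a call (-0.55 ± 0.19, limma adjusted p = 0.116). As a ratio to H1f0 alone, which does not use H1fx, Hist1h1c stood at 0.120 to 0.143 at 1 day, 0.428 to 0.574 at 3 days and 0.388 to 0.470 at 10 days, against 0.262 to 0.305 in sham right. These ratios were computed after the levels were seen and are given as a description.

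**Figure D2:**
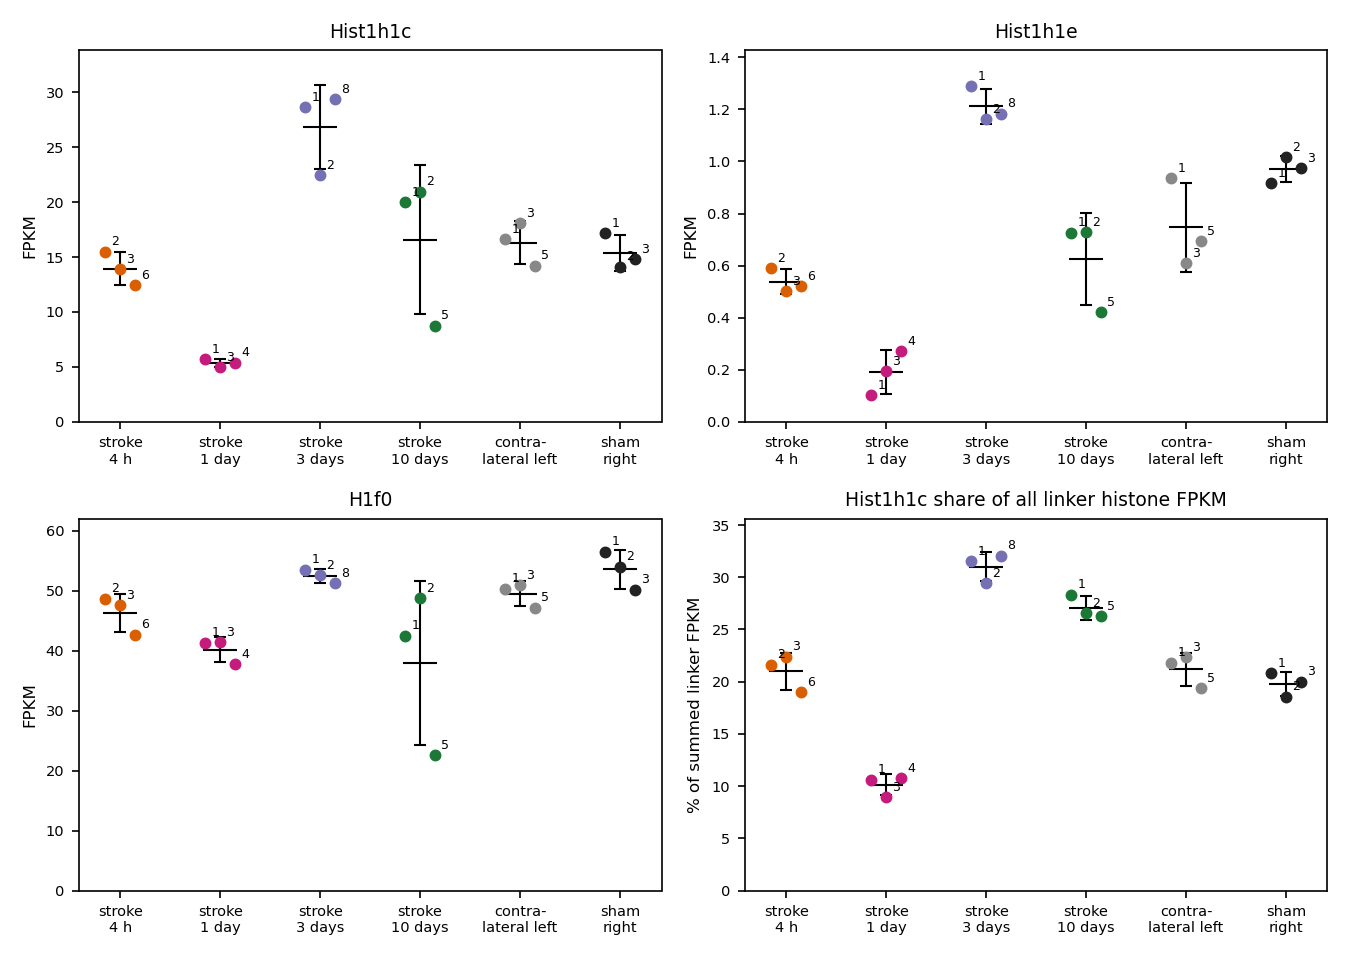
FPKM of Hist1h1c, Hist1h1e and H1f0, and the share of Hist1h1c in the summed FPKM of the 8 linker genes (%), by library; points are libraries with their numbers, bars are the mean ± SD of 3. Hist1h1c and Hist1h1e are lowest at 1 day and highest at 3 days, and the share of Hist1h1c falls to 8.97% to 10.8% at 1 day and reaches 29.5% to 32.1% at 3 days.

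The other 4 H1 cluster genes were near zero in every group. Hist1h1b, an H1 subtype used in dividing cells, had 0.0770, 0.0925 and 0.122 FPKM at 4 h, 0, 0.153 and 0.0552 FPKM at 1 day, 0.146, 0.0513 and 0.130 FPKM at 3 days, and 0.0514, 0.0405 and 0.0289 FPKM at 10 days. Contralateral left had 0, 0.121 and 0 FPKM and sham right 0.0516, 0 and 0 FPKM. Its 4 h libraries lay above sham right, the other groups overlapped it, and it was listed at 0 in 5 of the 18 libraries. The highest value of any of the 4 in a library was 0.214 FPKM.

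Among core histones, 1 H2B gene fell at 1 day. Hist2h2be, an H2B variant gene known from mouse olfactory neurons, had 2.31, 1.78 and 1.89 FPKM at 4 h, 1.85, 1.52 and 1.74 FPKM at 1 day, 1.85, 1.99 and 2.50 FPKM at 3 days, and 2.23, 2.22 and 2.35 FPKM at 10 days, against 3.62, 2.80 and 2.79 FPKM in contralateral left and 2.54, 3.51 and 3.45 FPKM in sham right. Every stroke library was below every sham right library. The difference was -0.62 ± 0.13 at 1 day (limma adjusted p = 0.0211), -0.47 ± 0.13 at 4 h (adjusted p = 0.0654), -0.42 ± 0.13 at 3 days (adjusted p = 0.0592) and -0.34 ± 0.13 at 10 days (adjusted p = 0.142). The 1-day call was lost in 8 of 20 alternatives, including the fits without sham right 2 (adjusted p = 0.141), sham right 3 (0.149), 1 day library 3 (0.136) and 1 day library 4 (0.08). None of its 50-base stretches was shared with another transcript.

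Of the H2B genes with the highest levels, Hist1h2bc and Hist1h2bg were lower at 1 day than at 3 days, short of a call, and Hist3h2ba was not (-0.15 ± 0.30 for 3 days against 1 day). Hist1h2bc held 42.2, 26.5 and 27.5 FPKM at 4 h, 26.5, 24.2 and 26.3 FPKM at 1 day, 47.2, 47.8 and 41.6 FPKM at 3 days, and 49.2, 53.6 and 33.9 FPKM at 10 days, against 59.4, 61.3 and 31.8 FPKM in contralateral left and 43.8, 34.6 and 44.6 FPKM in sham right. Its 1-day libraries lay below all of the 3-day and sham right libraries, with 0.80 ± 0.24 for 3 days against 1 day (limma adjusted p = 0.0668) and -0.65 ± 0.24 for 1 day against sham right (adjusted p = 0.344). Hist1h2bg, another H2B gene, had 8.62, 5.50 and 7.38 FPKM at 4 h, 5.62, 5.50 and 5.72 FPKM at 1 day, 9.99, 10.9 and 9.33 FPKM at 3 days, and 11.2, 10.8 and 6.05 FPKM at 10 days. Contralateral left had 13.6, 12.8 and 6.97 FPKM and sham right 9.83, 7.01 and 9.68 FPKM. Its 1-day libraries were also below all 3-day and sham right ones, without a call (3 days against 1 day 0.74 ± 0.24, limma adjusted p = 0.094). Its ratio to Hist1h2bc kept between 0.179 and 0.269 in all 18 libraries.

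Hist3h2a, an H2A gene on chromosome 11, had 19.2, 16.9 and 11.7 FPKM at 4 h, 19.8, 17.6 and 17.6 FPKM at 1 day, 18.4, 17.5 and 19.4 FPKM at 3 days, and 17.4, 19.3 and 9.65 FPKM at 10 days. Contralateral left had 18.5, 19.8 and 14.1 FPKM and sham right 21.3, 22.3 and 22.9 FPKM. All of its sham right libraries were above all others, with no call (largest difference -0.55 ± 0.21 at 10 days, limma adjusted p = 0.161). Its H2B neighbour Hist3h2ba had 24.1, 22.8 and 18.7 FPKM at 4 h, 23.3, 21.03 and 20.4 FPKM at 1 day, 18, 24.4 and 16.3 FPKM at 3 days, and 19.4, 24.9 and 8.31 FPKM at 10 days. Contralateral left had 32.6, 38.5 and 19.3 FPKM and sham right 26, 27.1 and 29.99 FPKM. All its stroke libraries lay below sham right, again with no call. The largest difference was -0.75 ± 0.30 at 10 days (limma adjusted p = 0.176), and at 3 days it was -0.50 ± 0.30 (limma adjusted p = 0.487). Hist1h2ac, the next H2A gene by level and too low to test, had 0.830, 0.540 and 0.314 FPKM at 4 h, 0.171, 0.395 and 0.215 FPKM at 1 day, 0.490, 0.709 and 0.823 FPKM at 3 days, and 0.785, 0.843 and 0.864 FPKM at 10 days. Contralateral left had 0.818, 0.941 and 0.485 FPKM and sham right 0.597, 0.297 and 0.579 FPKM. Its 10-day libraries lay above sham right, and the other groups overlapped it.

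H3 and H4 cluster genes were low. Hist2h3c2, which encodes the replication-linked H3, had 1.85, 1.26 and 1.44 FPKM at 4 h, 1.48, 0.941 and 1.46 FPKM at 1 day, 3.26, 3.00 and 2.98 FPKM at 3 days, and 2.91, 3.00 and 1.78 FPKM at 10 days, against 2.66, 3.23 and 1.60 FPKM in contralateral left and 3.17, 2.32 and 2.08 FPKM in sham right. It was the other member called higher at 3 days against 1 day (0.84 ± 0.19, limma adjusted p = 0.0115), with all 3-day libraries above all 1-day ones. The call was lost without 1 day library 3 (adjusted p = 0.0766) or 3 days library 1 (adjusted p = 0.0539), and 63.5% of its stretches are shared with other transcripts. Hist2h3c1, a copy of the same H3, had 0.416, 0.0591 and 0.0570 FPKM at 4 h, 0.561, 0.271 and 1.29 FPKM at 1 day, 0.526, 0.696 and 0.850 FPKM at 3 days, and 0.392, 2.997 and 3.58 FPKM at 10 days. Contralateral left had 0.555, 2.53 and 0.0541 FPKM and sham right 3.12, 0.0921 and 2.38 FPKM. Its libraries differed many fold within each group other than 3 days, and all its stretches are shared. Hist1h3d, an H3 gene too low to test, had 0.220, 0.141 and 0.180 FPKM at 4 h, 0.314, 0.114 and 0.317 FPKM at 1 day, 0.455, 0.3003 and 0.647 FPKM at 3 days, and 0.469, 0.541 and 0.787 FPKM at 10 days. Contralateral left had 0.203, 0.273 and 0.121 FPKM and sham right 0.441, 0.275 and 0.372 FPKM.

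Of the H4 genes, Hist1h4h was the highest, at 2.35, 1.497 and 1.24 FPKM at 4 h, 1.37, 1.11 and 1.304 FPKM at 1 day, 2.81, 2.40 and 2.20 FPKM at 3 days, and 6.02, 7.88 and 0.235 FPKM at 10 days. Contralateral left had 6.32, 5.17 and 1.68 FPKM and sham right 3.23, 2.36 and 2.84 FPKM. All 1-day libraries lay below all 3-day and sham right ones, and 10 days held both the highest value and the lowest. Hist1h4i had 3.37, 1.37 and 1.01 FPKM at 4 h, 1.92, 1.20 and 1.68 FPKM at 1 day, 3.35, 2.69 and 2.59 FPKM at 3 days, and 4.23, 5.88 and 1.31 FPKM at 10 days. Contralateral left had 4.50, 4.35 and 1.14 FPKM and sham right 3.63, 1.54 and 3.95 FPKM. Both were lower in library 5 than in the other 10-day libraries. Hist1h4k had 1.88, 0.940 and 1.28 FPKM at 4 h, 3.14, 1.38 and 1.298 FPKM at 1 day, 1.95, 1.23 and 2.14 FPKM at 3 days, and 2.57, 1.48 and 0.216 FPKM at 10 days. Contralateral left had 2.099, 2.43 and 1.70 FPKM and sham right 2.21, 3.05 and 2.46 FPKM. None of these 3 H4 genes was called in any comparison, and neither was Hist2h3c1.

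**Figure D3:**
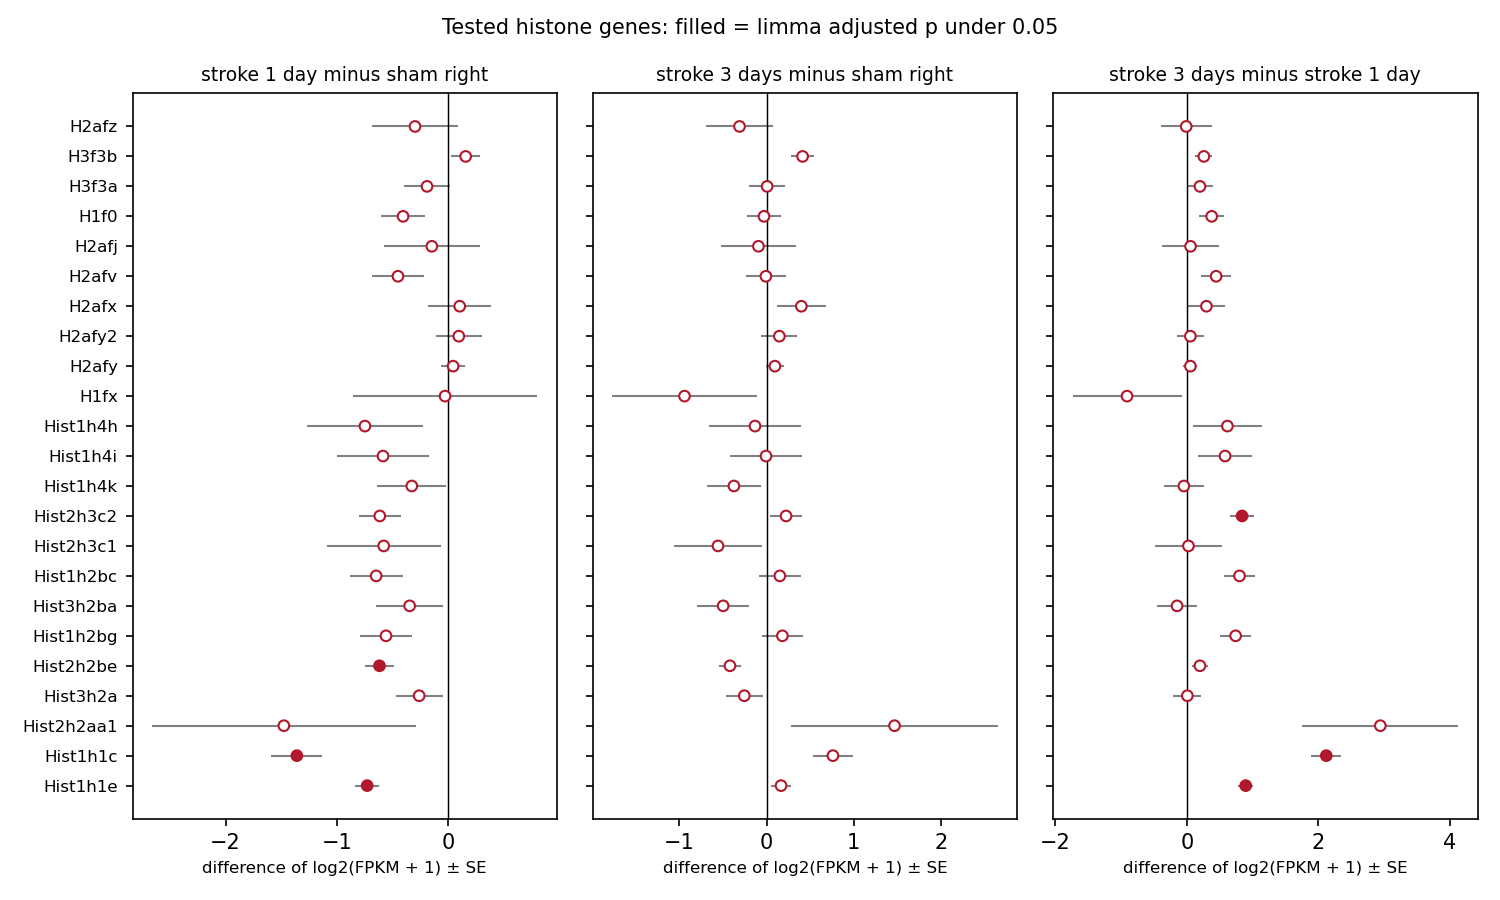
Difference of log2(FPKM + 1) with its SE for the 23 tested histone genes, variants above cluster genes, at 1 day and at 3 days against sham right and at 3 days against 1 day; filled points have a limma adjusted p under 0.05. Hist1h1c stands at -1.36, 0.76 and 2.12 in the 3 panels, and 19 of 23 genes lie below 0 in the first.

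The variants showed no call in any comparison. Of the 10, 2 (H3f3b and H2afx) lay wholly above sham right at 4 h, 1 day and 3 days. The shares of all tested genes that did so were 18.8% at 4 h, 14.3% at 1 day and 27.2% at 3 days. H3f3b, which with H3f3a encodes the H3 variant placed outside S phase, measured 58.0, 59.1 and 53.2 FPKM at 4 h, 51.2, 53.5 and 53.9 FPKM at 1 day, 62.6, 56.1 and 72.6 FPKM at 3 days, and 50.9, 58.9 and 47.2 FPKM at 10 days, against 41.2, 47.9 and 53.8 FPKM in contralateral left and 46.1, 48.5 and 47.5 FPKM in sham right. All libraries at 4 h, 1 day and 3 days lay above sham right, by 0.41 ± 0.13 at 3 days (limma adjusted p = 0.072; under 0.05 in 7 of 20 alternatives). Contralateral left 5 reached the same range.

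Its partner H3f3a encodes the same protein from another gene. H3f3a had 46.8, 45.3 and 27.1 FPKM at 4 h, 46.9, 51.1 and 39.7 FPKM at 1 day, 54.6, 49.1 and 54.2 FPKM at 3 days, and 56.3, 59.3 and 43.1 FPKM at 10 days. Contralateral left had 57.5, 65.2 and 42.0 FPKM and sham right 49.6, 50.4 and 57.2 FPKM. Its 4 h libraries were all below sham right, and its 3-day libraries overlapped it. The ratio of H3f3b to H3f3a was 1.24, 1.31 and 1.96 at 4 h, 1.09, 1.05 and 1.36 at 1 day, 1.15, 1.14 and 1.34 at 3 days and 0.904, 0.993 and 1.09 at 10 days, against 0.717, 0.736 and 1.28 in contralateral left and 0.930, 0.962 and 0.831 in sham right. The first 3 times lay above sham right in each library, and 10 days overlapped it. The highest ratio was that of 4 h library 6, with the lowest short-gene level, and the lowest ratios were those of contralateral left 1 and 3, with the highest. The part of the short-gene level in the ratio was not tested.

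H2afx, the H2A variant that is phosphorylated at DNA breaks, was the other variant above sham right at the first 3 times. It had 21.7, 19.1 and 20.4 FPKM at 4 h, 17.3, 17.5 and 17.3 FPKM at 1 day, 20.1, 20.7 and 24.1 FPKM at 3 days, and 13.6, 15.6 and 4.29 FPKM at 10 days, against 13.5, 16.3 and 16.1 FPKM in contralateral left and 17.2, 15.9 and 15.3 FPKM in sham right. The 1-day libraries lay just above sham right, and the 10-day libraries were all below the 3-day ones. No difference was called; 10 days against 3 days gave -1.06 ± 0.28 (limma adjusted p = 0.0712), and -0.54 without 10 days library 5 (adjusted p = 0.0246).

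The variants that replace H2A at promoters, H2afz and H2afv, spread widely between libraries of a group. H2afz had 64.5, 50.6 and 32.2 FPKM at 4 h, 56.7, 64.9 and 44.7 FPKM at 1 day, 58.3, 63.2 and 43.8 FPKM at 3 days, and 64.2, 70.4 and 27.6 FPKM at 10 days, against 106, 99.4 and 36.6 FPKM in contralateral left and 76.9, 57.4 and 70.4 FPKM in sham right. The low libraries were 10 days 5, 4 h 6 and contralateral left 5, whose short-gene deviations were -0.18, -0.61 and -0.30, and the high ones contralateral left 1 and 3, with 0.42 and 0.51. H2afv had 18.9, 17.1 and 14.1 FPKM at 4 h, 16.7, 16.04 and 14.01 FPKM at 1 day, 20.7, 22.3 and 21.6 FPKM at 3 days, and 20.97, 25.6 and 17.3 FPKM at 10 days. Contralateral left had 33.1, 37.0 and 16.1 FPKM and sham right 25.3, 18.7 and 21.4 FPKM. Its 1-day libraries were below all 3-day and sham right ones, with no call. H2afj, another H2A variant, had 25.0, 22.9 and 15.7 FPKM at 4 h, 23.5, 21.7 and 19.4 FPKM at 1 day, 24.0, 24.1 and 19.3 FPKM at 3 days, and 21.9, 29.1 and 5.50 FPKM at 10 days. Contralateral left had 36.2, 39.1 and 14.9 FPKM and sham right 27.8, 20.7 and 23.8 FPKM. It was likewise highest in contralateral left 1 and 3 and lowest in 10 days library 5. The part of the short-gene level in these values was not tested.

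The macroH2A genes H2afy and H2afy2, whose products carry a large extra domain and are linked to silent chromatin, were not called in any comparison. H2afy had 7.28, 6.88 and 7.35 FPKM at 4 h, 7.89, 7.25 and 7.66 FPKM at 1 day, 8.07, 7.11 and 8.67 FPKM at 3 days, and 6.88, 6.79 and 5.44 FPKM at 10 days. Contralateral left had 6.85, 7.42 and 7.78 FPKM and sham right 7.65, 6.91 and 7.49 FPKM. Its differences from sham right, the contralateral one included, ranged from -0.19 to 0.10, with a SE of 0.11 each. H2afy2 had 8.85, 8.06 and 7.71 FPKM at 4 h, 7.90, 7.73 and 8.67 FPKM at 1 day, 7.35, 9.34 and 8.74 FPKM at 3 days, and 6.78, 6.96 and 3.24 FPKM at 10 days. Contralateral left had 5.73, 6.19 and 9.10 FPKM and sham right 7.997, 8.12 and 6.55 FPKM. The lowest value was that of 10 days library 5.

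**Figure D4:**
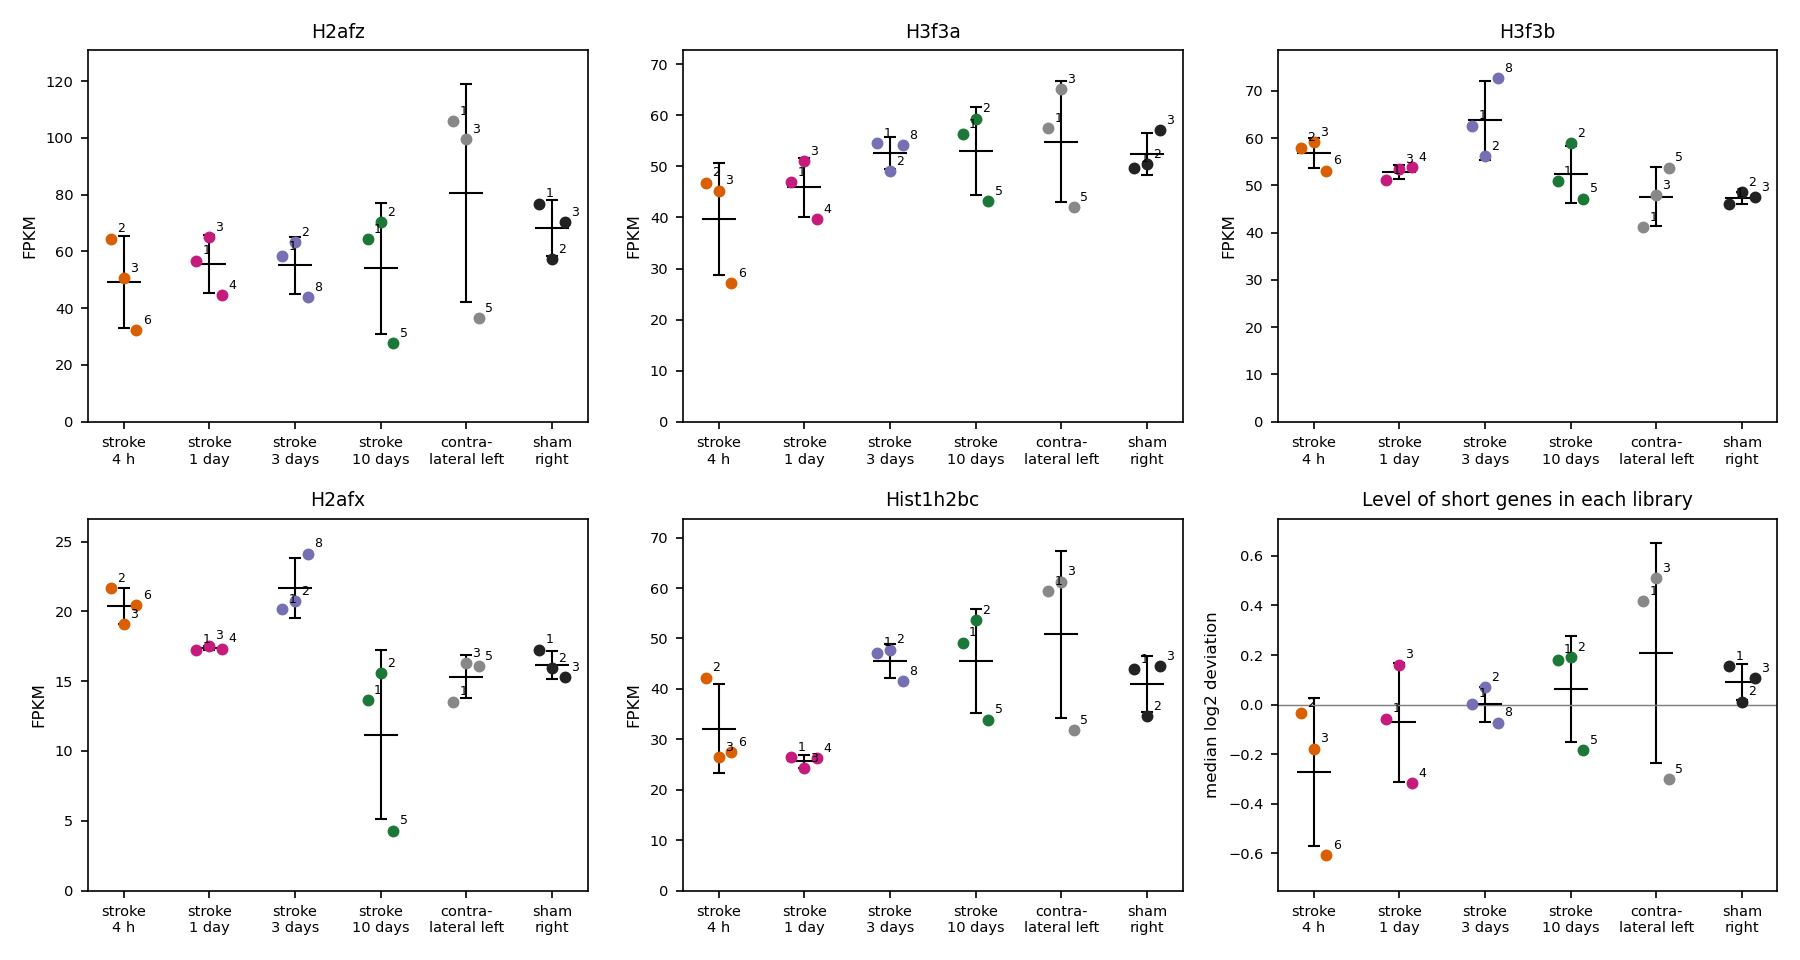
FPKM of H2afz, H3f3a, H3f3b, H2afx and Hist1h2bc by library, and the median log2 deviation of short genes in each library; points are libraries with their numbers, bars are the mean ± SD of 3. H2afz is low in 4 h library 6 (32.2 FPKM) and contralateral left 5 (36.6 FPKM), where the short-gene level is low, and H3f3b lies above sham right at 4 h, 1 day and 3 days.

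Counted over comparisons, few members passed the test in the fit of all libraries, and the counts moved with the libraries fitted. The 3 lower at 1 day against sham right became 8 without contralateral left 5 and 10 days 5, 5 with only the 2 groups fitted and 1 without the 5 libraries of extreme short-gene level. The 3 higher at 3 days against 1 day became 8, 7 and 3 in the same fits. Genes called in either direction, over all genes, also varied between the alternatives. They ran from 62 to 418 at 1 day (165 in the main fit) and from 377 to 1290 at 3 days against 1 day (732). Shares in the single fits are not given, so the moved counts are not read as a result about the histone genes. At 4 h against sham right 0 of 23 were called higher (1.32% of all tested genes) and 0 lower (0.863%), with 0 higher and 5 lower at an unadjusted p under 0.05. At 3 days against sham right 0 were called higher (6.91% of all tested genes) and 0 lower (0.457%), with 2 higher and 1 lower unadjusted. At 10 days against sham right 0 were called higher (6.21% of all tested genes) and 0 lower (0.92%), with 0 higher and 7 lower unadjusted. Contralateral left against sham right gave 0 higher (0.0214% of all tested genes) and 0 lower (0.00713%), and 0 unadjusted in either direction. All of these shares are at the adjusted threshold. Shares of all tested genes at an unadjusted p under 0.05 were not computed, so nothing is read from the unadjusted counts. The share of members called lower at 1 day was above that of all tested genes. At 3 and 10 days 0 of 23 called higher is near what shares of 6.91% and 6.21% would give, so no difference is read from it.

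Direction without regard to a call leaned low early. At 4 h and at 1 day 19 of 23 members lay below sham right, with median differences of -0.36 at 4 h and -0.41 at 1 day, against 0.01 and 0.03 over all tested genes. Short genes deviated by -0.61 to -0.03 (log2) at 4 h and -0.32 to 0.16 at 1 day, against 0.01 to 0.15 in sham right. With that level as a covariate 3 members were again called lower at 1 day, and without the 5 libraries of extreme short-gene level 1 was. These counts concern calls only, and the part of the short-gene level in the lean was not tested. The median over members was -0.01 at 3 days (all tested genes 0.08), -0.19 at 10 days (-0.07), 0.04 in contralateral left (-0.05), 0.26 for 3 days against 1 day (0.03) and -0.26 for 10 days against 3 days (-0.15). All comparisons with sham right share its 3 libraries. Libraries wholly below sham right were found for 9 members at 4 h (17.2% of all tested genes) and 11 at 1 day (8.5%), and wholly above for 2 at 4 h (18.8%) and 2 at 1 day (14.3%), H2afx and H3f3b at both times. At 3 days against 1 day 12 members were wholly above (16.9% of all tested genes) and 0 wholly below (4.86%). At 3 days against sham right 4 were wholly above (27.2% of all tested genes) and 4 wholly below (9.67%), and at 10 days 0 above (13.8%) and 6 below (13.2%). Contralateral left had 1 above (3.6%) and 1 below (8.29%). At 10 days against 3 days 0 were above (5.77%) and 6 below (20.1%), H1f0, H2afx, H2afy, H2afy2, Hist1h1c and Hist1h1e.

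Cell division genes allow a comparison, since new DNA needs new histones. Of 21 S phase and division genes, 18 were tested, and 15 were called higher and 0 lower at 3 days against sham right. Of all tested genes, 6.91% were called higher and 0.457% lower there. Mki67, a marker of cycling cells, had 5.21, 3.72 and 8.49 FPKM at 3 days and 0.335, 0.364 and 0.390 FPKM in sham right (log2 2.26 ± 0.31, limma adjusted p = 1.29e-04). Pcna, the replication clamp, had 40.9, 37.6 and 45.7 FPKM at 3 days and 29.6, 29.2 and 33.0 FPKM in sham right, with no overlap and no call (0.42 ± 0.18, limma adjusted p = 0.220). Rrm2, which makes DNA precursors, had 7.26, 6.71 and 15.9 FPKM at 3 days and 0.658, 0.959 and 0.633 FPKM in sham right, and differed by 2.56 ± 0.23 (limma adjusted p = 2.74e-06). Top2a, which untangles chromosomes, had 5.52, 3.53 and 8.28 FPKM at 3 days and 0.247, 0.435 and 0.418 FPKM in sham right, and differed by 2.25 ± 0.24 (limma adjusted p = 1.09e-05). Mki67, Rrm2 and Top2a were under 1 FPKM in every sham right library. They passed the filter through other groups, which can favour genes that are high after stroke. At 10 days 2 of the 18 were called higher than sham right (6.21% of all tested genes), at 1 day 0 (0.899%) and at 4 h 1 (1.32%), Cdt1.

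None of the low histone genes was called at that time, also when all were tested. The 51 untested members summed to 8.68, 4.91 and 6.33 FPKM at 4 h, 6.71, 5.17 and 6.22 FPKM at 1 day, 10.8, 10.12 and 13.4 FPKM at 3 days, and 12.8, 15.9 and 6.80 FPKM at 10 days, against 9.49, 12.9 and 5.55 FPKM in contralateral left and 9.78, 7.67 and 11.0 FPKM in sham right. The 3-day libraries overlapped sham right and were all above the 1-day ones. These 51 genes were chosen for failing the filter in these same libraries. Any gene at 1 FPKM or more in all 3-day libraries is thus left out, and the sum can miss a rise at 3 days. With no filter all 74 members were tested, and 0 were called higher at 3 days against sham right. There 8 were higher at an unadjusted p under 0.05 in the limma fit, for which no share over all genes was computed. At 3 days against 1 day 3 were called higher, the same genes as with the filter. The median untested member held 0.0190 to 0.194 FPKM in a library, which is at most about the worth of a few fragments and in 10 days library 5 less than 1, so that small changes of single genes were not detectable at this depth. Only 4 untested members reached 1 FPKM in any library, Hist2h2aa2, Hist1h2bn, Hist1h4m and Hist1h4c, named here after their values were seen, with a highest value of 2.1 FPKM.

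**Figure D5:**
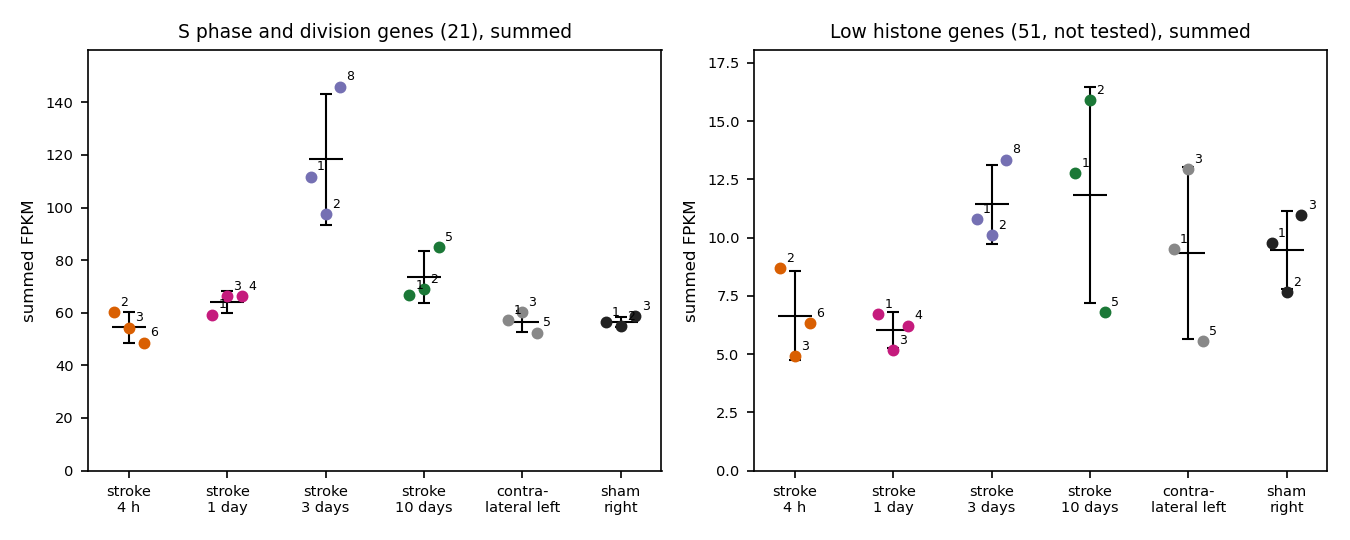
Summed FPKM of 21 S phase and division genes (left) and of the 51 low histone genes that were not tested (right), by library; points are libraries with their numbers, bars are the mean ± SD of 3. The division genes reach 97.4 to 146 FPKM at 3 days against 54.9 to 58.7 FPKM in sham right. The low histone genes overlap, at 10.12 to 13.4 FPKM at 3 days and 7.67 to 11.0 FPKM in sham right. They were chosen for failing the filter in these libraries, which can leave out genes that rose at 3 days, and the division genes had no such cut.

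Few genes that make and handle histone mRNA were called. Slbp held 3.18, 3.13 and 2.27 FPKM at 4 h, 3.29, 3.2 and 3.1 FPKM at 1 day, 3.50, 3.77 and 3.24 FPKM at 3 days, and 3.16, 3.51 and 2.96 FPKM at 10 days, against 3.03, 3.40 and 3.66 FPKM in sham right, and differed by 0.05 ± 0.12 at 3 days (limma adjusted p = 0.918). Of the 11 tested genes for histone transcription and 3' end processing, 0 were called higher in any comparison. Lsm10, a part of the U7 particle that cuts histone mRNA, was the 1 called lower at 4 h, at 1.87, 1.42 and 1.99 FPKM at 4 h against 4.57, 6.23 and 5.27 FPKM in sham right (-1.20 ± 0.18, limma adjusted p = 0.00246). Its partner Lsm11 was the 1 called lower at 10 days (-0.52 ± 0.14, limma adjusted p = 0.0262).

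Among 15 tested histone chaperones and variant loaders, Asf1b alone was called. Asf1b, which carries new H3 and H4 to replicating DNA, had 1.49, 1.28 and 2.07 FPKM at 3 days and 0.681, 0.409 and 1.08 FPKM at 10 days, against 0.0472, 0.0751 and 0.147 FPKM in sham right. The difference was 1.25 ± 0.15 at 3 days (limma adjusted p = 3.17e-05) and 0.64 ± 0.15 at 10 days (limma adjusted p = 0.0101). Asf1b too passed the filter through groups other than sham right. Hira, which loads the H3 variant outside S phase, was at 7.45 to 7.69 FPKM at 3 days and 7.62 to 8.13 FPKM in sham right.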

How the data were processed

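RNA of punched mouse brain was sequenced in 18 libraries of total RNA, 6 groups of 3, with 1 mouse per library within a group. The tools named, per the submitters' processing notes, are StringTie 1.3.4d, HISAT2 2.1.0 and Trimmomatic 0.36, on build GRCm38; settings, annotation and strand handling are not given in the sources used here. The values are FPKM per gene as the authors deposited them. FPKM depends on total RNA content, and without strand data a gene and its antisense partner cannot be told apart. The copy used holds 34921 complete genes and 1 broken line. The authors' deposited p-value and q-value columns were not used.

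Genes at 1 FPKM or more in at least 3 libraries (14016) were fitted as log2(FPKM + 1) with limma 3.58.1 in R 4.3.3 (trend and robust moderation, statmod 1.5.0), 1 mean per group over all libraries, with Benjamini-Hochberg adjustment over all tested genes and a threshold of 0.05. The fit was first tested on simulated data. Depth was estimated from the smallest steps of single-exon genes; 34.6% to 39.7% of low values lay within 0.1 of a whole multiple, so depth is rough. Python 3.11.15 was used for other steps. Positions, transcripts and the sequence motif at the 3' end are from GENCODE M21 (GRCm38), promoters from RefSeq (GRCm38.p6), matched for 67 of 74 members.

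The members and lists were chosen with earlier results of these data known. Named with values are the 10 variants, the 3 cluster genes of each class with the highest mean FPKM, up to 6 further members with the smallest adjusted p, the panel Slbp, Mki67, Top2a, Rrm2 and Pcna, and other listed genes where called. Alternatives covered the pseudocount, filter, scaling, replicate block, groups fitted, control group and libraries left out; listed zeros set missing, the short-gene covariate, leaving out 4 h 6 with all contralateral left, and leaving out the 5 libraries whose short-gene level deviated by over 0.25 (log2) were added after seeing the data.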

Additional observations from a re-analysis of the deposited data

How the results depend on the processing

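None of the 14 single-gene differences recomputed changed sign. These were the member differences with a limma adjusted p under 0.1 in the main fit. The alternatives reuse most of the same libraries, so a change of sign was unlikely from the start. Hist1h1e kept its calls at 1 day against sham right and at 3 days against 1 day in every alternative run, and Hist1h1c all but 1. Of 264 recomputed counts of histone genes called, 222 were equal or within 1.5 times and 42 moved. Without contralateral left 5 and 10 days 5, the counts were 1 higher and 5 lower at 4 h, 8 lower at 1 day, 3 higher and 2 lower at 3 days, 1 higher at 10 days and 5 higher in contralateral left, each against sham right, 8 higher at 3 days against 1 day and 1 higher at 10 days against 3 days. Fitting only the groups compared gave 5 lower at 1 day, 3 higher at 3 days, 7 higher at 3 days against 1 day and 0 lower at 10 days against 3 days. With both control groups as the control, 1 was lower at 4 h, and 2 were higher and 1 lower at 3 days. With the short-gene level as a covariate, 2 were higher and 1 lower at 3 days, 2 lower at 10 days, 5 higher at 3 days against 1 day and 2 lower at 10 days against 3 days. Without 4 h 6 and all contralateral left, 1 was higher at 3 days and 0 lower at 10 days against 3 days. Without the 5 libraries of extreme short-gene level, 1 was lower at 1 day (Hist1h1e), 1 higher at 3 days and 0 lower at 10 days against 3 days. Rescaling without mitochondrial genes gave 1 higher at 3 days, no filter gave 1 higher at 10 days (Hist1h2af, named after its value was seen), and a pseudocount of 0.1 or rescaling by median ratio gave 0 lower at 10 days against 3 days. Counts over all genes moved over the alternatives too, and in contralateral left against sham right they ran from 0 to 2760. Shares of all genes called are not given fit by fit, so no difference of histone genes from all genes is read from these counts. The cause of these moves was not tested.

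Leaving out 1 library at a time gave 0 to 1 lower at 4 h, 0 to 1 higher and 0 to 1 lower at 3 days, 0 to 3 lower at 10 days, 0 to 1 higher in contralateral left and 0 to 2 lower at 10 days against 3 days. The count of 3 lower at 10 days came without 10 days library 2 (H1f0, H2afx and Hist3h2ba). No label says that equal library numbers mark a shared mouse or batch, and correlations of same-numbered libraries ran from -0.227 to 0.409 over 23 pairs, 9 of them over 0.1. For contralateral left and sham right they were 0.22 (number 1) and 0.10 (number 3). Pairs of unlike number between these groups ran from -0.31 (left 1 with sham right 2) to 0.37 (left 5 with sham right 2). A shared mouse is thus not settled. With the block, 0 histone genes were called between these groups. With the number as a replicate block, 2 histone genes were lower at 1 day against sham right (Hist2h2be was lost, adjusted p = 0.228), 3 higher at 3 days against 1 day, and 0 lower at 10 days against 3 days.

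Counts over all genes moved as well. Over the alternatives they ran from 90 to 1806 at 4 h (306 as reported) and 62 to 418 at 1 day (165). The ranges were 680 to 1834 at 3 days (1032), 695 to 1417 at 10 days (1000) and 0 to 2760 in contralateral left (4). Between times, they were 377 to 1290 at 3 days against 1 day (732) and 3 to 460 at 10 days against 3 days (283). Scaling by median ratio shifted a library by at most 0.24 (log2). Groups of 3, shared copies and rough depth limit what the low genes can show.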
